A study of Mus musculus with 8 samples.

Results

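Peroxisomal fatty acid oxidation is represented here by 9 genes, Ehhadh, Hsd17b4, Acaa1a, Scp2, Abcd2, Abcd3, Pex11a, Pxmp2 and Crat, and every probe set that the platform annotation lists for them was taken, without regard to its values. That gave 21 probe sets with 1 gene symbol out of 34945 in all, and 2 more that the annotation assigns to Acaa1b and Acaa1a together. The RNA is from epididymal white adipose tissue (the visceral fat pad that lies along the epididymis), hybridised to Affymetrix arrays after 3′ labelling with biotin, each mouse on its own array. The 4 LPA4-KO mice were Lpar4 -/Y, that is, males without a working copy of the X-linked gene of a lysophosphatidic acid receptor, and the 4 WT mice were wild type. All were male littermates on C57BL/6, aged 12 weeks and fed standard chow. The part of Lpar4 that is deleted is not given in the sources used here, and the tissue was taken whole, so fewer cells of a type and less RNA per cell cannot be told apart. The labels call the arrays biological replicates.

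Peroxisomes shorten fatty acids that mitochondria handle poorly, above all very long-chain, branched and dicarboxylic ones. ABC transporters of the D subfamily carry the acyl-coenzyme A into the organelle, a bifunctional enzyme hydrates and dehydrogenates the chain, and a thiolase splits off acetyl-coenzyme A. The shortened chains leave as carnitine esters or free acids. Many of the genes are targets of the nuclear receptor PPARα, and in liver they are its textbook response to fasting and to fibrates. White fat has few peroxisomes compared with liver, but Abcd2 is strongly expressed in it.

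The promoters of 3 members are shown because Ehhadh and Scp2 gave the smallest p of any pair of members over the 8 arrays, and Ehhadh and Pex11a shared their highest array. Each is the 250 bases before a RefSeq transcript start in build GRCm38.p6, all on the minus strand, read 5′ to 3′. The Ehhadh window is chr16:21787835-21788084, the Scp2 window chr4:108118548-108118797, which lies inside the gene as RefSeq draws it, and the Pex11a window chr7:79743132-79743381. Capitals mark AGGTCA, the half-site of the element that PPAR receptors bind with RXR, on either strand.
Ehhadh: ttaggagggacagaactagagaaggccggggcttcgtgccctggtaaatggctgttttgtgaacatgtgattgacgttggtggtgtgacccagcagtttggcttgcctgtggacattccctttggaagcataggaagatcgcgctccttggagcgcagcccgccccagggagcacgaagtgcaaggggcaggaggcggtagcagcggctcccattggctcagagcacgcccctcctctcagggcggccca
Scp2: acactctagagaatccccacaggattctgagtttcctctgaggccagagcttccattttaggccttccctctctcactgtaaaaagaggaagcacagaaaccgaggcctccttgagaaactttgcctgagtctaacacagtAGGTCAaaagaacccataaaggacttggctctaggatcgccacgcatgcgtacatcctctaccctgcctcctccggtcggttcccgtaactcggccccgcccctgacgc
Pex11a: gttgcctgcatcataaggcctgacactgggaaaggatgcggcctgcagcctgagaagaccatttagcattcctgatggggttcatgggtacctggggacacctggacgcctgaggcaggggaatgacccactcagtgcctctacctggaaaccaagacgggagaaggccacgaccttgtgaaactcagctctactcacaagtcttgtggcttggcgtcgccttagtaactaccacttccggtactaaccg
Windows for 5 of the 9 genes were given, 6 in all, the others being those of Acaa1a and Abcd3. The full element, AGGTCA repeated in the same direction with any 1 base between the copies, was searched on both strands and was in 0 of the 6 and in 0.0335% of all 32851 windows of this length. The same repeat of AGGNCA was in 0 of 6 and in 0.338% of all. The half-site was in 1 of 6, in Scp2 with its last base 104 bases before the start, and in 14% of all. That start lies inside the gene. The 5′ end of Scp2 as RefSeq draws it is chr4:108144971, and the bases before it were not searched. A match or its lack describes these letters only, and elements farther away were not searched.

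No member differed between genotypes at the threshold used. In limma's fit of all 34945 probe sets, 0 of the 21 were called higher and 0 lower at a Benjamini-Hochberg adjusted p under 0.05, while 0.933% of all probe sets were called. At an unadjusted p under 0.05 there were 3 of 21, against 16.9% of all probe sets. They were Abcd2 1456812_at, Abcd3 1416679_at and Scp2 1419975_at, the last with a span of only 0.020 log2 over the 8 arrays. The median difference (LPA4-KO minus WT) was 0.00027 log2 over the 21, next to 2.4e-05 log2 over all probe sets, and 0.11 log2 over the 9 genes with the brightest probe set for each, next to 4e-05 over all genes. The last 2 medians are of unlike sets. That probe set spanned over 0.1 log2 in 7 of the 9 genes but in only 22.1% of all genes, so the median of all genes falls on a nearly flat row. Of the 21, 9 were nearly constant, spanning at most 0.020 log2 over the 8 arrays, and only 12, of 7 genes, spanned over 0.1 log2. Over these 12 varying probe sets the differences ran from -0.12 to 0.56 with a median of 0.12 log2, and 8 were positive. Of all 6682 varying probe sets 43.2% were positive, with a median of -0.05 log2. A varying probe set was kept for its spread, part of which a difference between groups can supply, so these shares describe the 12 and are not a test. Levels and differences are in log2 units as deposited. A group mean is given ± SD (n = 4) and a difference ± SE.

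**Figure D1:**
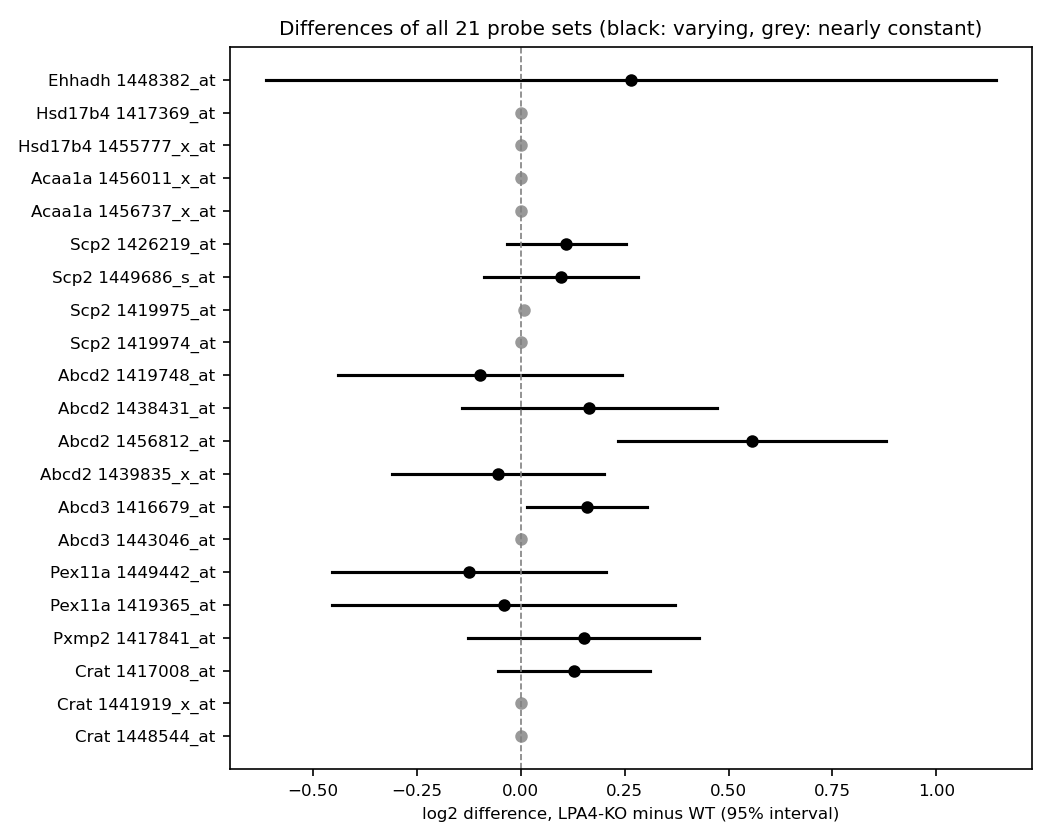
Difference between LPA4-KO and WT (x axis, log2, point with 95% interval from limma) for each of the 21 probe sets (y axis), with varying probe sets in black and nearly constant ones in grey. The intervals of Abcd2 1456812_at and Abcd3 1416679_at lie above 0 and those of the other 10 varying probe sets include it, the widest being that of Ehhadh from -0.61 to 1.14.

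Array medians lay between 6.50 and 6.51 (exact two-sided permutation p = 0.057). The 3′ minus 5′ difference of the Gapdh control probe sets, a sign of RNA quality, ran from 0.56 to 0.60 log2 in LPA4-KO and from 0.57 to 0.63 in WT (exact permutation p = 0.54). That of Actb ran from 1.21 to 1.33 in LPA4-KO and from 1.14 to 1.22 in WT (exact permutation p = 0.17). The interquartile range was narrower in all LPA4-KO arrays (1.387 to 1.394) than in all WT arrays (1.404 to 1.431; exact two-sided permutation p = 0.0286, the smallest that 4 against 4 arrays can give). Lpar4 was lower in LPA4-KO mice at probe set 1452424_at (5.80 ± 0.05 against 6.52 ± 0.03, adjusted p = 0.0033) and not at its other 2 probe sets, which had higher means in LPA4-KO and did not pass (adjusted p = 0.23 and adjusted p = 0.39). Of the fat markers that bear on the tissue label, Adipoq stood at 13.83 and Fabp4 at 13.40, both nearly constant. The 7 measured epididymis markers were flat too, at means from 5.99 to 6.56.

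Summed marker genes of several cell types differed in level between the groups. The summed linear signal of 10 adipocyte markers ran from 64174 to 67596 in LPA4-KO and from 62595 to 63999 in WT, without overlap, with 6 of the 7 varying genes positive and 0 called. That of 12 progenitor and fibroblast markers ran from 15706 to 19293 in LPA4-KO and from 20866 to 23998 in WT, with all 12 lower in LPA4-KO on average and 1, Dpt, passing the test (-0.43 ± 0.04, adjusted p = 0.026, and past it with 1 array left out only without WT replicate 1). All 10 mesothelial markers and the 8 varying of 10 macrophage markers were lower on average too, with 0 called and with overlapping sums. The sum of 6 brown fat markers ran from 578 to 768 in LPA4-KO and from 536 to 575 in WT, without overlap and with 0 called. Of these Cox8b had a difference of 0.41 ± 0.17 (adjusted p = 0.30), without overlap, as at 28.2% of all varying probe sets. Cidea had one of 0.28 ± 0.21 (adjusted p = 0.56), while Ucp1, Dio2, Cox7a1 and Elovl3 were nearly constant. The sum of the 7 nearly constant epididymis markers did not overlap either (548.86 to 548.89 in LPA4-KO and 548.78 to 548.82 in WT). A sum without overlap therefore need not carry a usable size. The part of these marker differences in the members' values was not tested.

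The transporters gave the clearest separation, at 1 probe set of Abcd2. Abcd2, whose product imports very long-chain and polyunsaturated acyl-coenzyme A, has 4 probe sets, all of them varying. At 1456812_at the LPA4-KO mice stood at 8.52, 8.42, 8.71 and 8.35 (replicates 1 to 4) and the WT mice at 7.95, 7.63, 8.04 and 8.16. Every LPA4-KO array was above every WT array, and the difference was 0.56 ± 0.13 log2, or 1.47-fold (95% interval 0.24 to 0.88 log2; adjusted p = 0.12; exact two-sided permutation p = 0.0286). It was the only varying member probe set whose groups did not overlap, 1 of 12 against 28.2% of all varying probe sets. When the varying probe sets were fitted alone it was called (adjusted p = 0.020), as 18.8% of them were. It was also called after quantile normalization of the arrays (adjusted p = 0.033), with 2 other member probe sets, and there 56.4% of all probe sets were called.

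The other 3 probe sets of Abcd2 did not show this. At 1419748_at, the only one of the 4 that the annotation ties to a RefSeq mRNA, the LPA4-KO mice stood at 10.81, 10.64, 10.55 and 10.41 and the WT mice at 10.95, 10.38, 10.67 and 10.79, a difference of -0.10 ± 0.14 (adjusted p = 0.80) that ranged from -0.20 without WT replicate 2 to -0.01 without WT replicate 1. The groups overlapped fully there, with WT replicate 2 lowest and WT replicate 1 highest. At 1438431_at the means were 9.72 ± 0.13 and 9.55 ± 0.23 (0.17 ± 0.13, adjusted p = 0.58; 0.07 without WT replicate 2 and 0.25 without WT replicate 4), and at 1439835_x_at 7.17 ± 0.10 and 7.22 ± 0.20 (-0.05 ± 0.11, adjusted p = 0.86). All 4 agreed on 1 point, that WT replicate 2 was the lowest array. They did not agree on the genotype difference: relative to 1456812_at the difference between genotypes was lower at 1419748_at (-0.65 log2) and at 1438431_at (-0.39 log2), and 1456812_at exceeded 1439835_x_at by 0.61 log2. Each had an exact permutation p of 0.0286, and 0.057 after adjustment over the 8 pairs of varying probe sets that share a gene, a comparison chosen after the values were seen. Where these probe sets lie in the transcript is not given in the sources used here.

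Abcd3, which encodes the transporter PMP70, one of the most abundant proteins of the peroxisomal membrane, had 1 varying probe set. At 1416679_at the LPA4-KO mice were close together at 10.51, 10.48, 10.54 and 10.48, while the WT mice were spread over 10.48, 10.37, 10.31 and 10.20. WT replicate 1 lay within the LPA4-KO range and the other WT arrays below it, for a difference of 0.16 ± 0.06 (1.12-fold, 95% interval 0.02 to 0.30, adjusted p = 0.26). Its second probe set, 1443046_at, was nearly constant at 6.04.

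**Figure D2:**
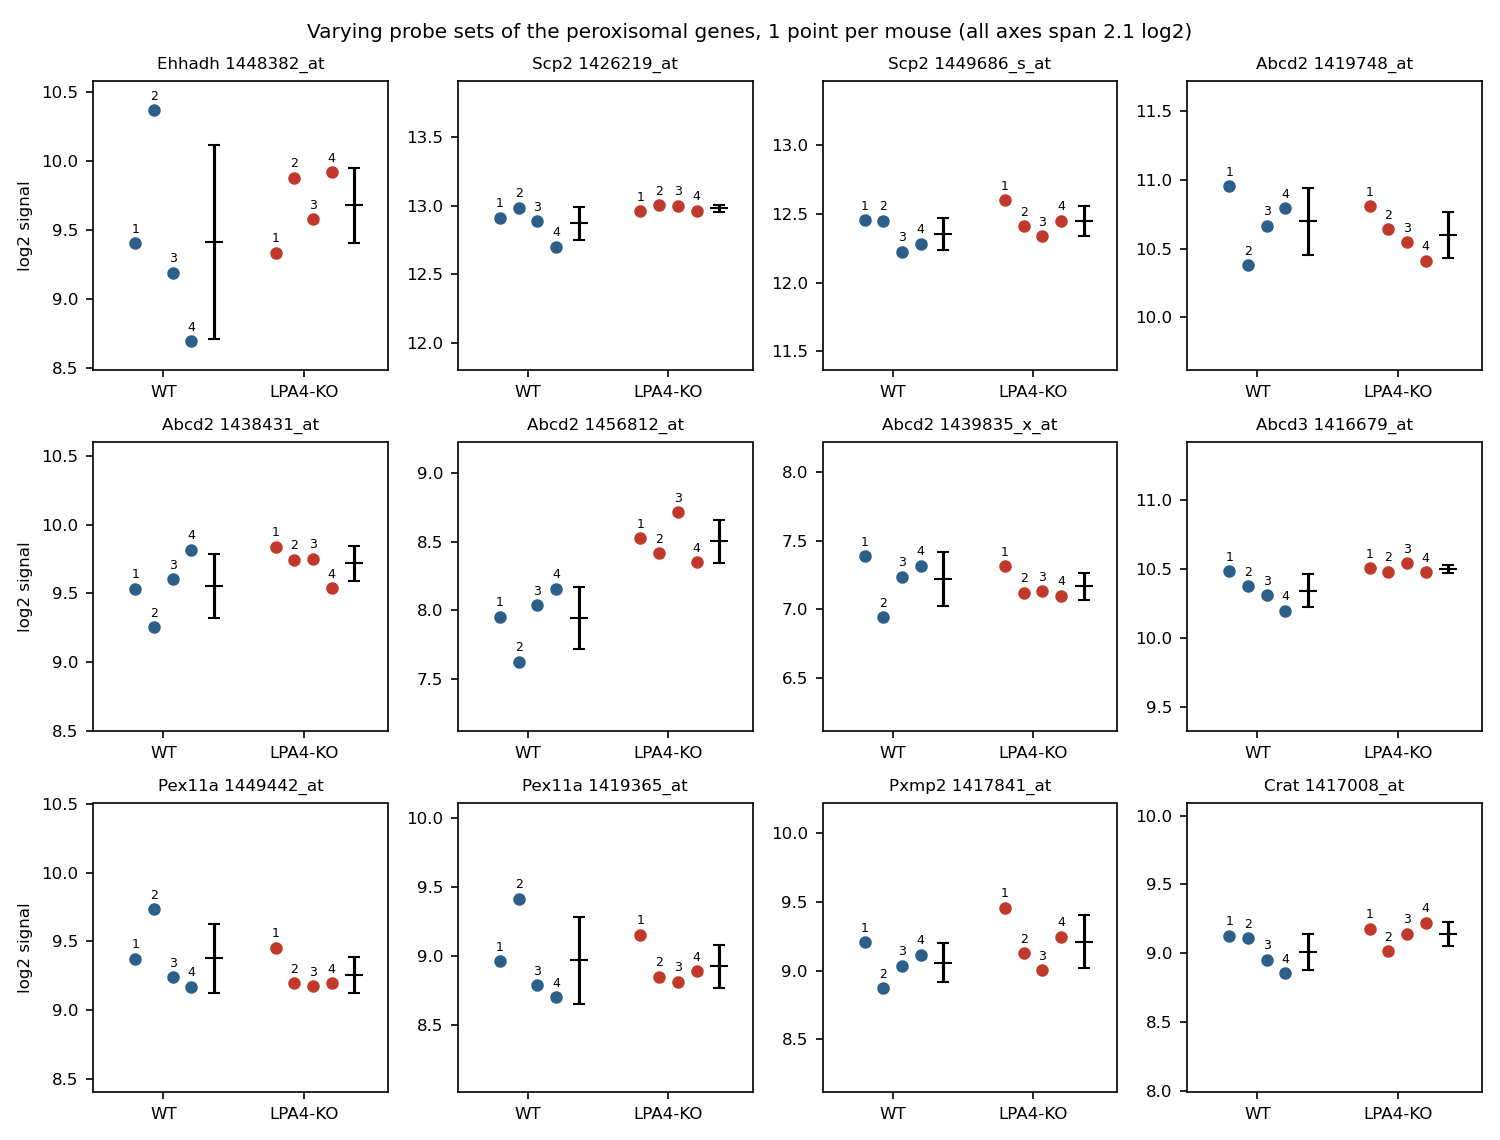
Log2 signal (y axis) of the 12 varying probe sets in each WT and LPA4-KO mouse (x axis, blue and red points numbered by replicate), with the group mean and SD as black bars, n = 4, on axes of equal length. Abcd2 1456812_at is the one panel in which all LPA4-KO points (8.35 to 8.71) lie above all WT points (7.63 to 8.16), and Ehhadh shows the widest WT spread (8.69 to 10.37).

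Of the enzymes, Ehhadh varied most between mice, and its genotype difference did not pass the test. It encodes the L-bifunctional enzyme, which carries out the hydratase and dehydrogenase steps, and has a single probe set, 1448382_at. The LPA4-KO mice stood at 9.34, 9.88, 9.58 and 9.92 and the WT mice at 9.40, 10.37, 9.19 and 8.69. Both the highest and the lowest array were WT, replicates 2 and 4, which differed 3.20-fold, and the whole LPA4-KO group lay between them. That range of 1.68 log2 was larger than in 98.8% of varying probe sets. The difference of 0.27 ± 0.36 (adjusted p = 0.78) has a 95% interval from -0.61 to 1.14, so the 8 arrays leave both a lower and a clearly higher level in LPA4-KO mice within the error. It came to 0.58 without WT replicate 2 and to 0.02 without WT replicate 4, and passed in neither case (adjusted p = 0.32 and adjusted p = 0.99).

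Scp2 encodes both a peroxisomal thiolase for branched chains and, from a shorter transcript, sterol carrier protein 2. Its probe set 1426219_at stood at 12.96, 13.00, 13.00 and 12.96 in LPA4-KO mice and at 12.91, 12.99, 12.88 and 12.70 in WT mice. Here WT replicate 4 was the low array and WT replicate 2 lay among the LPA4-KO arrays, for a difference of 0.11 ± 0.06 (adjusted p = 0.41), or 0.05 without WT replicate 4. The probe set 1449686_s_at gave 12.45 ± 0.11 and 12.35 ± 0.12 (0.10 ± 0.08, adjusted p = 0.59). That difference was 0.05 when either LPA4-KO replicate 1 or WT replicate 3 was left out. The remaining probe sets, 1419974_at and 1419975_at, were nearly constant.

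For Hsd17b4, the D-bifunctional enzyme, and Acaa1a, the straight-chain thiolase, the table holds no informative value. Both Hsd17b4 probe sets, at 10.82 and 10.64, spanned at most 0.00059 log2 over the 8 arrays, and both probe sets of Acaa1a alone, at 8.23 and 8.11, at most 0.00067. Only 19.1% of all named probe sets varied by over 0.1 log2, and bright ones such as Adipoq are among the flat ones, so a flat row here says nothing on whether the transcript changed. The 2 probe sets listed for Acaa1b and Acaa1a together did vary. At 1416946_a_at the LPA4-KO mice had 9.92, 9.65, 9.61 and 9.73 and the WT mice 10.003, 9.64, 9.57 and 9.87, and at 1416947_s_at the means were 10.39 ± 0.06 and 10.40 ± 0.14. The groups overlapped at both, with differences of -0.04 ± 0.12 (adjusted p = 0.90) and -0.01 ± 0.07 (adjusted p = 0.98), and neither thiolase can be told from the other there.

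The genes of the peroxisomal membrane overlapped between genotypes as well. Pex11a, whose product elongates peroxisomes ahead of division, had 2 varying probe sets that followed each other closely. At 1449442_at the LPA4-KO mice stood at 9.45, 9.19, 9.18 and 9.19 and the WT mice at 9.37, 9.73, 9.24 and 9.17. WT replicate 2 was highest and LPA4-KO replicate 1 next, and the difference was -0.12 ± 0.14 (adjusted p = 0.71), or -0.0065 without WT replicate 2. At 1419365_at the means were 8.93 ± 0.16 and 8.97 ± 0.32, again with WT replicate 2 on top at 9.42. That difference of -0.04 ± 0.17 (adjusted p = 0.94) became 0.11 without WT replicate 2. Pxmp2 encodes a channel protein that lets small solutes through the membrane. It stood at 9.46, 9.13, 9.003 and 9.25 in LPA4-KO mice and at 9.21, 8.87, 9.03 and 9.12 in WT mice, a difference of 0.15 ± 0.12 (adjusted p = 0.57), with LPA4-KO replicate 1 above all others. It was 0.07 without that array and 0.09 without WT replicate 2.

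Crat, the carnitine acetyltransferase of peroxisomes and mitochondria, turns short acyl-coenzyme A into carnitine esters that can leave the organelle. At 1417008_at the LPA4-KO mice had 9.18, 9.01, 9.14 and 9.22 and the WT mice 9.13, 9.11, 8.95 and 8.85. WT replicates 3 and 4 were below every LPA4-KO array and WT replicates 1 and 2 were not, for a difference of 0.13 ± 0.08 (1.09-fold, adjusted p = 0.46), or 0.08 without WT replicate 4. Its probe sets 1441919_x_at and 1448544_at were nearly constant. The groups did not overlap at the first of these, over a range of 0.00057 log2, which carries no usable size. With it, 2 of the 21 member probe sets did not overlap, against 12.5% of all probe sets.

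**Figure D3:**
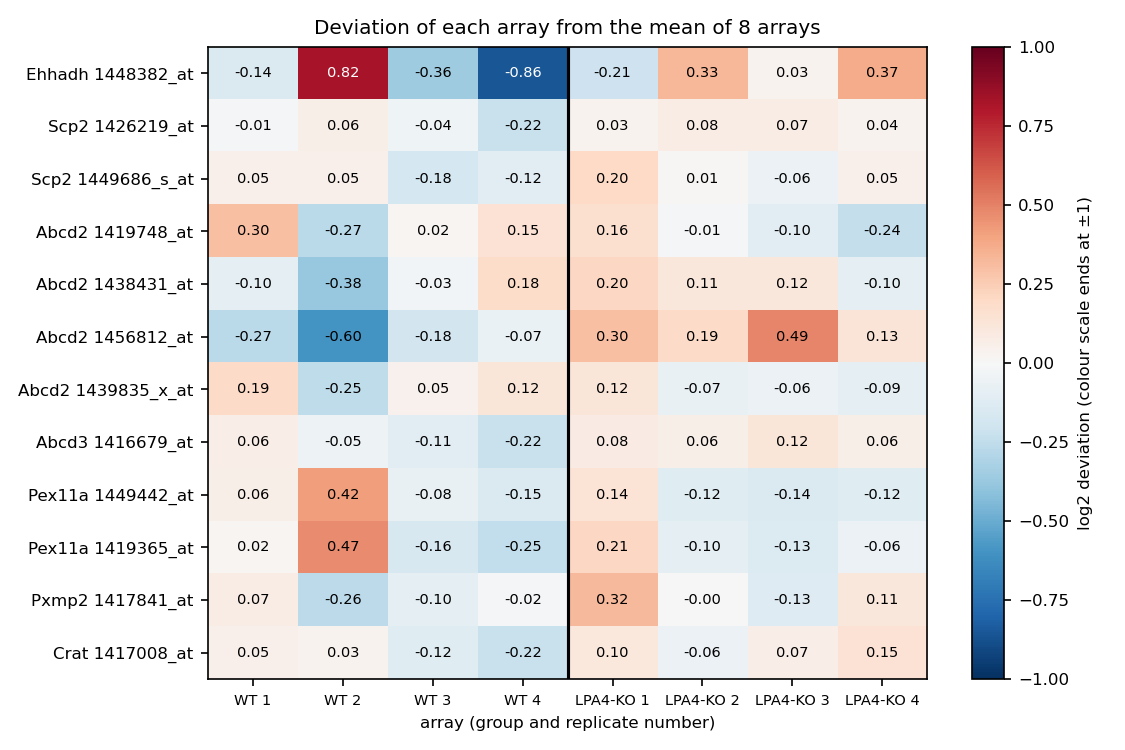
Deviation of each array from the mean of the 8 arrays (colour and printed number, log2) for the 12 varying probe sets (rows) in 4 WT and 4 LPA4-KO arrays (columns). WT replicate 2 is highest at Ehhadh and both Pex11a probe sets and lowest at all 4 Abcd2 probe sets and at Pxmp2, and WT replicate 4 is lowest at Ehhadh, Abcd3, Crat, Scp2 1426219_at and both Pex11a probe sets.

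The order of the mice differed from member to member. LPA4-KO replicate 1 was the highest array at 3 of the 12 varying probe sets and among the top 3 at 10. WT replicate 2 was also the highest at 3, and the lowest at 5, WT replicate 4 was the lowest at 6, and no LPA4-KO array was the lowest at any. The SD was larger in WT than in LPA4-KO at 11 of the 12, the exception being Pxmp2. The same held for 64.4% of all varying probe sets. Without WT replicate 2 the count was 6 of 12 and the share of all varying probe sets 56.8%. Several of the 12 share a gene, and r between varying probe sets of 1 gene ran from 0.07 to 0.97. Counted by gene, WT had the larger SD at 1 probe set or more in 6 of 7 genes, and in 5 of 7 without that array. A gene with several varying probe sets meets that count more easily.

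Pairs of members were compared over the 8 arrays with 1 varying probe set a gene, that with the highest mean, which made 21 pairs of 7 genes. None passed after adjustment, with 5 at an unadjusted p under 0.05. Ehhadh and Scp2 had the smallest p (Pearson r = 0.82, exact permutation p = 0.0089, adjusted p = 0.080, and Spearman rho = 0.79, exact permutation p = 0.028, adjusted p = 0.39). Leaving out WT replicates 2 and 4, the arrays farthest from the median of Ehhadh, left r = 0.72. The other bright varying probe set of Scp2, 1449686_s_at, was not in the comparison. Its highest array was LPA4-KO replicate 1 (12.60), where Ehhadh stood at 9.34. For Abcd3 with Crat (r = 0.84, exact permutation p = 0.0098, adjusted p = 0.080, and rho = 0.69, exact permutation p = 0.069, adjusted p = 0.49) the same step, leaving out WT replicates 3 and 4, left r = 0.19, so that relation rests on those arrays. Scp2 with Abcd3 (r = 0.84, exact permutation p = 0.011, adjusted p = 0.080, and rho = 0.55, exact permutation p = 0.17, adjusted p = 0.64) came to r = -0.03 without WT replicates 3 and 4. Scp2 with Crat (r = 0.75, exact permutation p = 0.030, adjusted p = 0.16) came to r = -0.40 without those arrays. Ehhadh with Abcd2 1419748_at was negative (r = -0.73, exact permutation p = 0.038, adjusted p = 0.16, and rho = -0.76, exact permutation p = 0.037, adjusted p = 0.39). Its r was -0.63 without WT replicates 2 and 4 and -0.71 with each genotype centred. Ehhadh with Pex11a gave r = 0.52 (exact permutation p = 0.21, adjusted p = 0.52; rho = 0.31, exact permutation p = 0.46), and r = -0.58 without WT replicates 2 and 4. With each genotype centred on its own mean, r was 0.84 for Ehhadh with Scp2, 0.76 for Abcd3 with Crat and 0.67 for Ehhadh with Pex11a. No batch is given in the labels.

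**Figure D4:**
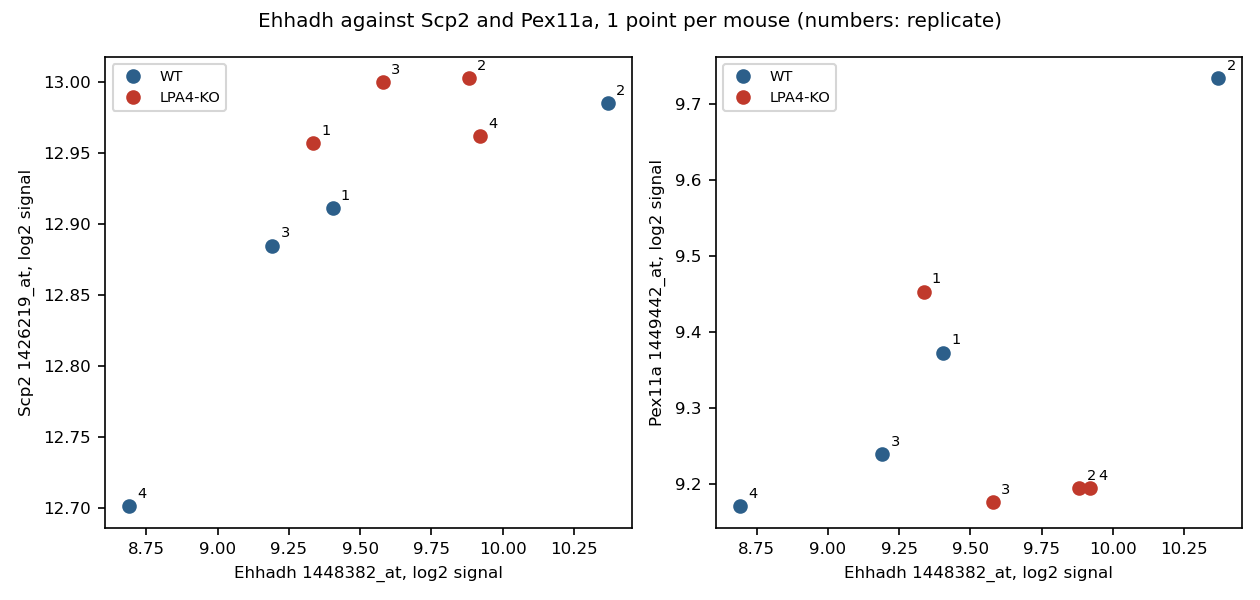
Log2 signal of Ehhadh 1448382_at (x axes) against Scp2 1426219_at (left y axis) and Pex11a 1449442_at (right y axis), 1 point per mouse, WT in blue and LPA4-KO in red, numbered by replicate. Scp2 is low where Ehhadh is low (WT replicate 4 at 8.69 and 12.70), while the Pex11a plot has WT replicate 2 alone at the upper right.

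The other peroxisomal genes were read from 3 lists, with the brightest probe set standing for each gene, where 1.06% of all genes were called. Of 64 measured genes 1 was called, Nudt19, which encodes a coenzyme A diphosphatase, and it was nearly constant: 8.568 ± 0.0006 against 8.564 ± 0.0005, a difference of 0.0045 log2 (adjusted p = 0.025). The call was lost when any array but WT replicate 1 was left out (adjusted p up to 0.075). Of the 28 varying genes 21 were positive and 7 negative, with a median of 0.05 log2, where 46.6% of all varying genes were positive.

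Among other enzymes and transporters, 25 measured, Phyh, the phytanoyl-coenzyme A hydroxylase of alpha-oxidation, was lower in all LPA4-KO mice (10.59 ± 0.07 against 10.90 ± 0.12, -0.30 ± 0.07, adjusted p = 0.099) without passing the test. The groups did not overlap at 28.2% of all varying probe sets. Amacr, the racemase that prepares branched chains for oxidation, was at 8.17 ± 0.14 and 7.77 ± 0.14 (0.40 ± 0.09, adjusted p = 0.11). Among the 17 measured peroxins and division genes, Pex16, which helps to insert membrane proteins, was at 9.15 ± 0.10 and 8.73 ± 0.13 (0.41 ± 0.08, adjusted p = 0.077), and Pex13, part of the import pore, at 10.88 ± 0.10 and 10.70 ± 0.06 (0.17 ± 0.06, adjusted p = 0.21). All 5 varying genes of that list were positive, and of the 17 measured 0 were called, with 4 at an unadjusted p under 0.05 (limma). Among 22 other peroxisomal proteins 0 were called, with 6 at an unadjusted p under 0.05 (limma). That p was reached by 16.9% of all probe sets, and of the genes so counted Pex10, Mpv17l and Pipox were nearly constant. Ephx2, the soluble epoxide hydrolase, differed by 0.33 ± 0.07 (adjusted p = 0.10) and the membrane protein gene Pxmp4 by 0.30 ± 0.07 (adjusted p = 0.12). In the varying probe sets fitted alone, Amacr, Pex16, Ephx2 and Pxmp4 were called higher and Phyh lower, 5 of 28, where 20.2% of all varying genes were called.

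**Figure D5:**
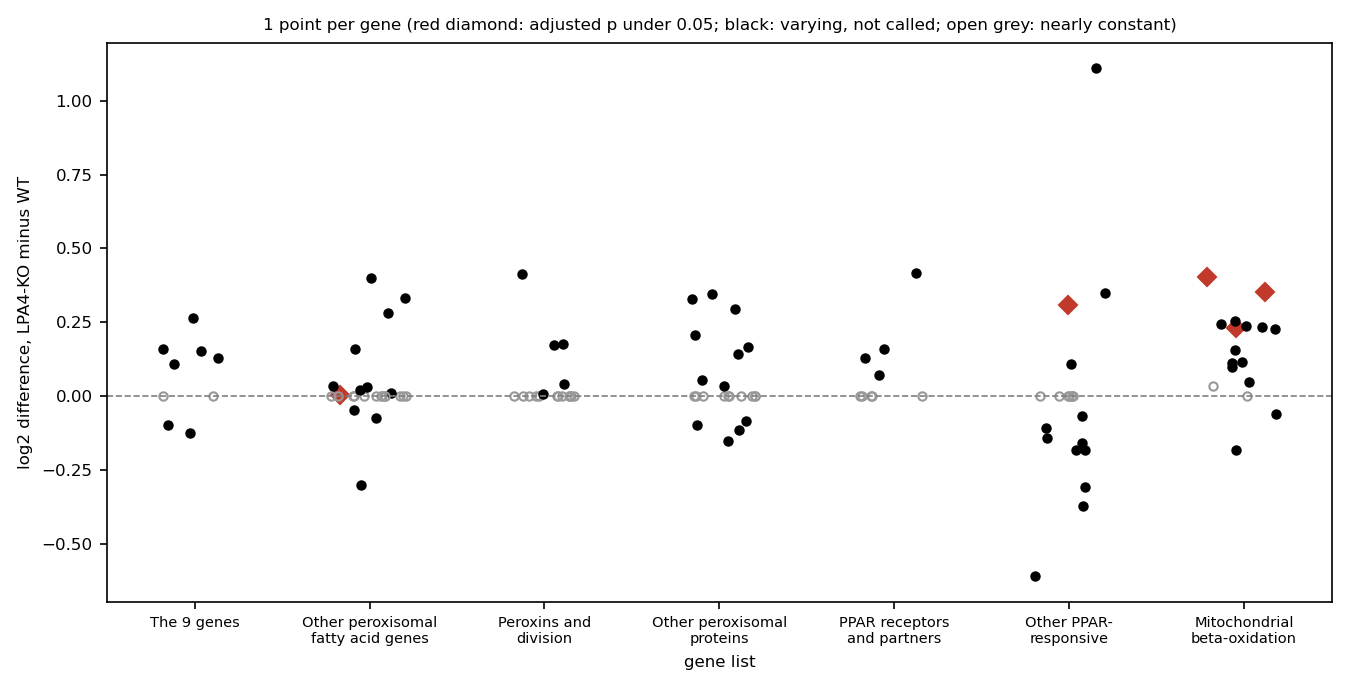
Difference between LPA4-KO and WT (y axis, log2), 1 point per gene, for the 9 genes, 3 lists of other peroxisomal genes, 2 PPAR lists and mitochondrial beta-oxidation (x axis); red diamonds passed at an adjusted p under 0.05, black points varied without passing and open grey points were nearly constant. The 9 genes lie between -0.12 and 0.27 with none called, and 3 of 17 mitochondrial genes were called, all higher.

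Of the PPAR genes 1 was called, a target. Of 9 measured PPAR receptors and partners 0 were called, with 2 at an unadjusted p under 0.05 (limma): Ppara (7.62 ± 0.14 against 7.21 ± 0.29, 0.42 ± 0.16, adjusted p = 0.26) and the nearly constant coactivator gene Med1. That p was reached by 16.9% of all probe sets. Of 20 other PPAR-responsive genes 1 rose, where 1.06% of all genes were called: Slc25a20, the mitochondrial carnitine-acylcarnitine carrier (0.31 ± 0.03, adjusted p = 0.031). Its call was lost without any 1 of the 8 arrays, at 0.28 to 0.33 log2 and adjusted p from 0.054 to 0.085. In the list 4 of the 13 varying genes were positive and 9 negative, where 46.6% of all varying genes were positive. In the varying probe sets fitted alone, 3 of these 13 were called, all higher, where 20.2% of all varying genes were called. Gpd1, the glycerol-3-phosphate dehydrogenase, had the largest difference of the list (9.76 ± 0.25 against 8.65 ± 0.38, 1.11 ± 0.22, adjusted p = 0.082), without overlap, as at 28.2% of all varying probe sets. Ehhadh was set against these 13 genes over the 8 arrays, and none passed after adjustment. The smallest p was that of Plin2, a lipid droplet protein (r = 0.83, exact permutation p = 0.0083, adjusted p = 0.11; rho = 0.90, exact permutation p = 0.0046), with r = 0.69 after WT replicates 2 and 4 were left out.

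In the mitochondrial pathway of the same chemistry, 15 of 17 measured genes varied, 13 of them positive, where 46.6% of all varying genes were positive. The median over the varying genes was 0.23 log2 here and 0.13 over the 7 varying members, 1 probe set a gene, against -0.03 over all varying genes. Etfdh (0.35 ± 0.04), Etfb (0.23 ± 0.03) and Acad9 (0.40 ± 0.06) rose there, 3 of 17 measured where 1.06% of all genes were called (adjusted p = 0.035, adjusted p = 0.038 and adjusted p = 0.040), all of them genes of electron transfer or acyl-coenzyme A dehydrogenation. With 1 array left out these 3 kept their direction but mostly not their call: Etfdh kept it only without WT replicate 1 (adjusted p up to 0.099), Acad9 only without WT replicate 2 (up to 0.12) and Etfb in no case (0.052 to 0.11). Only 22.1% of all genes varied, so the share of 1.06% is of an unlike set. In the varying probe sets fitted alone, 6 of the 15 varying mitochondrial genes were called, all higher, where 20.2% of all varying genes were called. The difference between the pathways was not tested.

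The genes whose values over the 8 arrays lay closest to those of Abcd2 at 1456812_at, the member probe set with the smallest p, were picked among 6682 varying probe sets by the root mean square difference after each was centred on its own mean. They were Tenm4 (0.098 log2), Ltc4s (0.106), Dnaja1 (0.112), Ccnd2 (0.118) and Tent5c (0.122). They were higher in LPA4-KO mice on average as the choice entails, by 0.41 to 0.55 log2, and Dnaja1, which encodes a cochaperone of Hsp70, was the one called (adjusted p = 0.032), a call lost without any 1 of the 8 arrays (0.053 to 0.086).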

How the data were processed

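The deposited table gives 1 log2 value per probe set and array, and per the submitters' processing notes the authors used R 2.14.0. Neither the background correction nor the normalization, the summarisation or the logarithm's base is stated there, and the log2 scale was inferred from values of 5.27 to 14.07. With 8 arrays, their number limits the precision. Names come from the platform's annotation: of 45101, 34945 had 1 symbol, 932 several, 9160 none listed and 64 were controls. Through Entrez numbers 34741 of the named ones matched RefSeq (GRCm38.p6). Only the first were fitted, with limma 3.58.1 in R 4.3.3 (lmFit, eBayes with a variance trend, no block, no filter), and p-values were adjusted over all of them. The shared Acaa1b and Acaa1a probe sets were fitted with them in a second run. Single values had an exact two-sided permutation test over 70 arrangements, and correlations one over 40320 pairings. The limma fit was tested on simulated data, and the permutation test of the groups on a made-up set of separated values.

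The rule for named genes takes all member probe sets, Lpar4, and of each other pathway list its called members or else the 2 with the smallest p, plus the 5 closest patterns to the member with the smallest p. Phyh, Amacr, Gpd1, the brown fat markers, the probe set pairs and the further genes of the closing section were singled out after their values were seen. Members, lists and the limit of 0.1 log2 were chosen with earlier results of these data known. Marker lists of lymphocytes (5 measured), liver (4), skeletal muscle (6) and endothelium (8) were also read, with 0 called and, at an unadjusted p under 0.05 in limma, 1, 0, 0 and 1. The alternatives were a level filter, 2 scalings, 2 other eBayes settings, array weights, the replicate block, 2 rules of 1 value a gene, varying probe sets alone, and each array left out.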

Additional observations from a re-analysis of the deposited data

Results flagged for a closer look

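Within the 4 arrays of a genotype, 1 array stood far from the rest in 2 of 24 sets of values (12 varying probe sets in each genotype), where chance gives about 1 in 20. Both times it was LPA4-KO replicate 1, above its group. At Pex11a 1449442_at it stood at 9.45 with the nearest array at 9.19, a gap of 0.932 of the group's range. At Abcd2 1439835_x_at it stood at 7.31 with the nearest at 7.13, a gap of 0.842 of the range.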

How the results depend on the processing

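No member probe set was called lower under any alternative, and none was called higher except in 2 settings. Quantile normalization gave 3 calls, Abcd2 1456812_at (adjusted p = 0.033), Abcd3 1416679_at (adjusted p = 0.046) and the nearly constant Crat 1448544_at (adjusted p = 0.033), where 56.4% of all probe sets were called. Fitting the varying probe sets alone gave 1 call, Abcd2, and a median of 0.12 log2 by its construction. The median was 0.11 with the brightest probe set of each gene and 0.054 with the mean of a gene's probe sets. With 1 array left out, no member was called, the median of the members ran from 0.00022 to 0.00033 log2, and Abcd2 1456812_at kept its direction (0.45 to 0.63 log2, adjusted p from 0.15 to 0.23). Among 201 results for varying member probe sets 2 turned direction without a call: Pex11a 1419365_at without WT replicate 2 and Abcd2 1439835_x_at without WT replicate 1 (0.00082). The r of Ehhadh with Pex11a was -0.09 without WT replicate 2 and 0.45 to 0.64 without any other array.

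Of the other peroxisomal genes, 25 were called higher and 1 lower after quantile normalization, 0 and 0 after median centring, 2 and 0 above the median level, with array weights or with the mean of all probe sets, 5 and 1 in the varying probe sets alone, where each gene is read at its brightest varying probe set, and 0 to 1 higher with 1 array left out. These scalings moved the median of all probe sets by 0.0035 and 0.0044 log2. The replicate number as a block called 0 members and 0 other peroxisomal genes. Same-numbered arrays correlated at 0.09, 0.08, 0.27 and -0.20 in their deviations from the group means, so the numbers were not taken as pairs.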

Other observations

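The genes closest to Ehhadh over the 8 arrays, chosen after its values were seen, were led by 2 probe sets of Ldb3, which encodes a Z-disc protein of striated muscle. At 1433783_at Ldb3 stood at 6.83, 7.10, 7.07 and 7.08 in LPA4-KO mice and at 6.72, 8.03, 6.68 and 6.37 in WT mice (root mean square difference 0.178 log2). WT replicate 2 was the highest and WT replicate 4 the lowest array, as for Ehhadh, an agreement that the choice by closeness favours. Slc4a4 (0.238), Prkab2, a subunit of AMP-activated kinase (0.248), and Kcne4 (0.254) followed. The skeletal muscle marker genes Ckm, Myh4, Tnnt3, Mylpf and Actn3 were nearly constant and so uninformative, and Acta1 differed by -0.72 ± 0.42 (adjusted p = 0.45). The summed linear signal of the 6 muscle markers was highest in WT replicate 3 (2453) and lowest in LPA4-KO replicate 1 (836). It was 1728 in WT replicate 2 and 1835 in WT replicate 4. Whether muscle RNA has a part in the values of Ehhadh was not tested.

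Pdk4, the pyruvate dehydrogenase kinase and a PPAR-responsive gene, ranged about as widely as Ehhadh, and more within LPA4-KO than within WT mice. It stood at 9.67, 10.02, 10.27 and 11.24 in LPA4-KO mice and at 10.80, 11.37, 10.79 and 10.68 in WT mice (-0.61 ± 0.36, adjusted p = 0.45). WT replicate 2 was again the highest array, and over the 8 arrays r with Ehhadh was 0.34 (exact permutation p = 0.42; rho = 0.45, exact permutation p = 0.27) and -0.01 without WT replicate 2.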
